A study of Mus musculus with 22 samples.

Results

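V-ATPase genes and genes of lysosomal ion transport were followed as a set of 30 named genes in cultured microglia of the mouse, the macrophages that live in the brain. The set was chosen by gene symbol, as every line of the expression table whose symbol was on the list, and all 30 were among the 15725 symbols of the table. It held 9 genes of the membrane sector V0, 8 genes of the catalytic sector V1, 2 accessory subunits, 4 genes linked to the RAVE assembly complex and 7 genes of lysosomal ion transport. Microglia were shaken off mixed glia grown from the cortex of C57BL/6J mice 1 to 3 days old, and every culture, the comparison groups included, received 100 ng/ml of lipopolysaccharide (LPS), a molecule of bacterial envelopes that sets off an inflammatory state in these cells, over 24 h. The 5 groups were cells given LPS after 48 h of transfection with 50 nM of an siRNA against the autophagy gene Atg5 (LPS+siAtg5, n = 5), LPS+dNC (n = 3), which the study set against LPS+siAtg5, cells given LPS and 50 nM CLA (LPS+CLA, n = 6), cells given LPS and 10 nM bafilomycin A1 (LPS+Baf A1, n = 5) and cells given LPS alone (n = 3). What CLA and dNC stand for is not written in the labels, and no culture without LPS was analysed here.

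The V-ATPase is a rotary proton pump that acidifies lysosomes, endosomes and secretory vesicles. Its V1 sector lies in the cytosol and hydrolyses ATP, and its V0 sector lies in the membrane and carries protons through a ring of c subunits. Bafilomycin A1 binds that ring and stops the pump, and lysosomes that are not acid no longer degrade what autophagy delivers. Microglia depend on acid lysosomes to break down engulfed material such as myelin debris. The RAVE complex, known best from yeast, joins V1 to V0, and its mammalian counterparts are built from Dmxl1 or Dmxl2 with Wdr7 and Rogdi. Chloride, calcium, potassium and sodium carriers of the lysosomal membrane balance the charge that the pump moves or release ions from the lumen.

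Expression was given as FPKM, a level scaled to transcript length and to the mapped fragments of the library, for all 22 libraries, although the headers of the 3 LPS+dNC columns give no unit and were read as the rest. Nothing in the labels ties the libraries of a group to separate cultures, and the spread behind each p-value may therefore be technical. Atg5 was lower in every LPS+siAtg5 library, at 12.6 to 13.5 FPKM, against 21.4 to 24.3 FPKM in LPS+dNC. The LPS+siAtg5 libraries stood apart, with a median gene at 4.53 to 4.80 FPKM, against 2.62 to 3.25 FPKM in the 17 other libraries. Their summed astrocyte markers reached 311 to 359 FPKM, against 5.35 to 25.0 FPKM in LPS+dNC, and Gfap and Aqp4, which define astrocytes, were at 124, 134, 114, 132 and 126 FPKM and at 55.2, 54.6, 51.1, 55.0 and 51.3 FPKM in the 5 knockdown libraries. In LPS+dNC the microglial receptor Cx3cr1 was nearly absent at 0.27, 0.15 and 0.11 FPKM, against 9.63, 7.86 and 5.88 FPKM in LPS, while the macrophage receptor Csf1r was present at 156, 182 and 122 FPKM. In a bulk library fewer cells of a type and less RNA per cell cannot be told apart. LPS replicate 3, LPS+dNC replicate 1 and LPS+CLA replicate 2 each differed from their group: the SD of the log2 difference over genes was 0.284 between LPS replicates 1 and 3 and 0.158 between replicates 1 and 2.

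The pump was expressed as an abundant machine with a few rare parts. In LPS alone the proteolipid gene Atp6v0c, which encodes the c subunit of the ring, led the set with 585, 625 and 698 FPKM. Tcirg1, the a3 subunit that directs the pump to lysosomes of macrophages and osteoclasts, came next with 213, 227 and 251 FPKM. Atp6v1b2, the B subunit of the catalytic head in most tissues, followed with 191, 198 and 189 FPKM. The LPS libraries of these 3 genes did not overlap. At the low end stood the kidney and osteoclast isoform Atp6v0d2, which ranged from 0.16 to 0.92 FPKM over all 22 libraries and reached 1 FPKM in none. It therefore did not pass the filter of at least 1 FPKM in at least 3 libraries, and the other 29 genes were tested. Rogdi at 1.45, 1.38 and 1.3 FPKM and Atp6v0e2 at 1.66, 1.74 and 1.73 FPKM in LPS were the lowest of those tested.

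**Figure D1:**
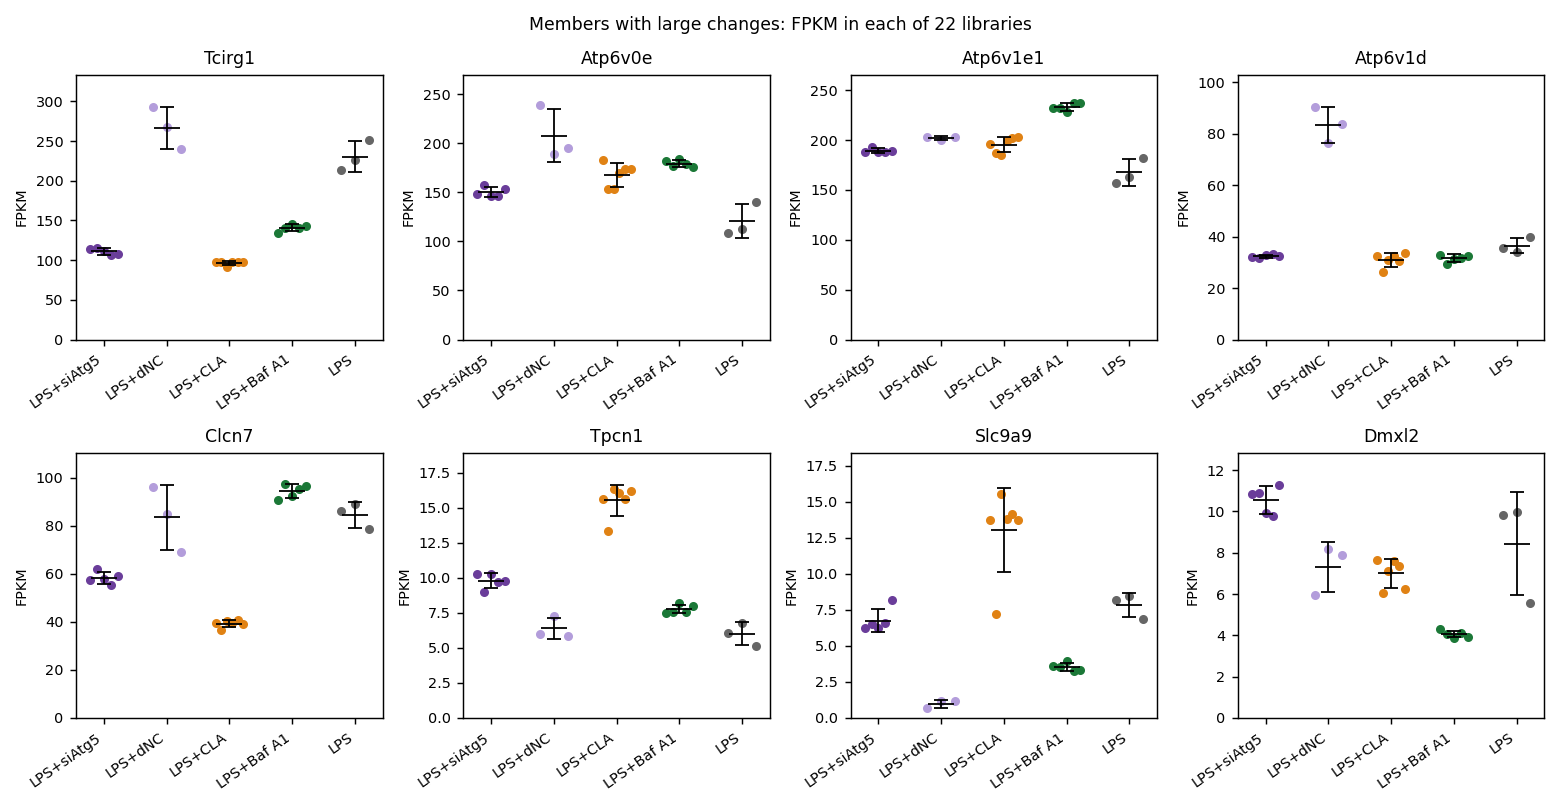
FPKM of the genes named most often, by library, in the 5 groups, with each point a library and bars giving the mean and SD. The linear axes start at 0, and Tcirg1 was lower in every LPS+siAtg5, LPS+CLA and LPS+Baf A1 library than in every library of LPS+dNC and LPS.

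The level of some genes hardly moved over the groups, and that of others moved widely. The highest group mean of Atp6v0d1, the d subunit of the central stalk, was 1.09 times its lowest, that of the calcium channel Mcoln1 1.15 times and that of Atp6v1b2 1.16 times. The corresponding ratio was 13.2 for Slc9a9, an endosomal sodium-proton exchanger, and 13.1 for Atp6v0e2, a second e subunit best known from brain. These ratios are a description, with no test.

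Many lysosomal genes carry the E-box letters CACGTG near their start, the core that TFEB, TFE3 and MITF bind, so the start regions were searched for them. RefSeq promoter windows of build GRCm38.p6, each holding 250 bases before a start and 50 bases from it, were given for 21 of the 30 genes. The letters CACGTG, which read the same on both strands, stood in a window of 6 of these 21 genes (28.6%), namely Atp6v0b, Atp6v0d1, Atp6v0e, Atp6v1a, Clcn7 and Mcoln1, against 8.09% of all 27025 genes with a window. The longer TCACGTGA, which contains CACGTG and also reads the same on both strands, stood in 5 of 21 (23.8%) against 1.12% of all genes, and the same letters with a further G before and C after them in 0 of 21 against 0.37%. A match is a description of the letters, and no match says only that these letters are not in this window. The following windows, with CACGTG in capitals, belong to a pair of genes with the letters and a pair without them, all 4 among the genes that moved most with CLA.
Clcn7, chr17:25133141-25133440, plus strand: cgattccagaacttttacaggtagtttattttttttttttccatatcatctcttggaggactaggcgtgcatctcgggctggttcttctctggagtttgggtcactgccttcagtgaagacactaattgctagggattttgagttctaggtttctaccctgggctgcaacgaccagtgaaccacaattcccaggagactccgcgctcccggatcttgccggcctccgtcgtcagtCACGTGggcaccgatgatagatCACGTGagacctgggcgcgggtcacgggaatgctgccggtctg
Atp6v0e, chr17:26676146-26676445, plus strand: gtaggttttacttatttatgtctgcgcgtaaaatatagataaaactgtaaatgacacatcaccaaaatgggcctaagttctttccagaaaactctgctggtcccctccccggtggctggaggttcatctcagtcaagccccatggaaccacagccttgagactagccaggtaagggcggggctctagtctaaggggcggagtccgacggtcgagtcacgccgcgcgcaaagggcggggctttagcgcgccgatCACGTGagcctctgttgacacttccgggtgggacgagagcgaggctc
Tcirg1, chr19:3907084-3907383, minus strand: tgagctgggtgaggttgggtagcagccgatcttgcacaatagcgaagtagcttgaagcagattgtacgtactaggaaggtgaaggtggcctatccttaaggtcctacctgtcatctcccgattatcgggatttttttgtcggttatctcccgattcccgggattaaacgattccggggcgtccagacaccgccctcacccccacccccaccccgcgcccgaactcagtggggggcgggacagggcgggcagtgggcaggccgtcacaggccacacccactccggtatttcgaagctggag
Slc9a9, chr9:94669642-94669941, plus strand: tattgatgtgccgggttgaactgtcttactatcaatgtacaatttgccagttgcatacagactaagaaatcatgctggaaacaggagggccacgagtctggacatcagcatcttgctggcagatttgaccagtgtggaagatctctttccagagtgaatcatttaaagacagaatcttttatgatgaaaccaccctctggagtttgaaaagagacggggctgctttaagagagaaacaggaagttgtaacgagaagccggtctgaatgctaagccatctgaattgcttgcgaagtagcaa
Clcn7 and Tcirg1 have further windows at other starts, and none of those held CACGTG. In the Clcn7 window shown the letters begin 15 bases before the start and again at base 8 from it, and in that of Atp6v0e they begin at base 4. Carrying the letters did not go with 1 direction: as given below, Clcn7 fell and Atp6v0e rose with CLA.

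With bafilomycin A1, the inhibitor of the pump itself, the c ring genes Atp6v0c and Atp6v0b and the small subunit gene Atp6v0e rose while the a subunit of lysosomes, an endosomal exchanger and the large RAVE subunits fell. Of the 29 genes tested, 8 were higher and 10 lower in LPS+Baf A1 than in LPS at a limma adjusted p under 0.05, which is 62.1%, against 57.8% of all 11070 genes tested, 32.7% higher and 25.1% lower. The libraries of the groups did not overlap for 19 of 29 genes (65.5%), against 52.7% of all genes. The median log2 change of the set was 0.02, against 0.04 over all genes. By role, 3 V0 genes rose and 2 fell of 8 tested, 1 V1 gene rose and 4 fell of 8, 1 accessory gene rose of 2, 1 RAVE gene rose and 2 fell of 4, and 2 ion transport genes rose and 2 fell of 7.

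Among V0 genes, Atp6v0e, a small membrane subunit beside the ring, had 182, 176, 184, 179 and 176 FPKM in LPS+Baf A1, against 109, 113 and 141 FPKM in LPS. All 5 treated libraries lay above all 3 LPS libraries, and the log2 change was 0.57 (standard error 0.076, adjusted p = 1.2e-06 by limma). Atp6v0b, the c'' subunit of the ring, had 231, 224, 226, 230.1 and 221 FPKM in LPS+Baf A1, against 158, 169 and 193 FPKM in LPS. Here too no treated library reached down to an LPS library, with a log2 change of 0.39 (standard error 0.073, adjusted p = 9.22e-05 by limma). Atp6v0c averaged 778 ± 19.2 FPKM in LPS+Baf A1 and 636 ± 57.1 FPKM in LPS (SD, n = 5 and 3), a log2 change of 0.30, adjusted p = 0.000535 by limma. Of the 50-base stretches in its transcripts 10.8% occur in other genes as well, chiefly the pseudogene Atp6v0c-ps2, and 8.59% of those of Atp6v0b do, so fragments of both could have been assigned elsewhere.

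Tcirg1 moved against the ring genes. It had 134, 141, 146, 140.3 and 143 FPKM in LPS+Baf A1, against 213, 227 and 251 FPKM in LPS. The highest treated library was well under the lowest LPS library, and the log2 change was -0.70 (standard error 0.056, adjusted p = 4.46e-10 by limma). Atp6v0a1, the a1 subunit best known from neurons, averaged 27.7 ± 1.08 FPKM in LPS+Baf A1 and 32.0 ± 1.32 FPKM in LPS, a log2 change of -0.20, adjusted p = 0.0181 by limma, and this call was lost without LPS replicate 2 (-0.17 with adjusted p = 0.0875). Atp6v0a2 (-0.013), Atp6v0d1 (0.057) and Atp6v0e2 (0.019) were not called, although Atp6v0d1 was called higher without LPS replicate 3 (0.12 with adjusted p = 0.0376).

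In the V1 sector 1 gene rose. Atp6v1e1, a peripheral stalk subunit, had 233, 232, 228, 237 and 237 FPKM in LPS+Baf A1, against 157, 163 and 182 FPKM in LPS. Every treated library was above every LPS library, and the log2 change was 0.48 (standard error 0.043, adjusted p = 2.85e-09 by limma). Atp6v1g1, its partner in the stalk, was lower at 83.3 ± 3.24 FPKM in LPS+Baf A1, against 101 ± 13.6 FPKM in LPS (-0.27, adjusted p = 0.000681 by limma), and 19.2% of its 50-base stretches occur in other genes. Atp6v1c1, the C subunit that links the stalks, was lower too, at 51.3 ± 1.68 FPKM in LPS+Baf A1 and 65.5 ± 4.53 FPKM in LPS (-0.34, adjusted p = 7.47e-05 by limma). Atp6v1b2 fell by less (-0.13), as did the rotor subunit Atp6v1d (-0.20), whose call was lost without LPS replicate 3 (-0.14 with adjusted p = 0.109). Atp6v1a, the A subunit that holds the catalytic site (-0.093), Atp6v1f (0.15) and Atp6v1h (-0.083) were not called. Without LPS replicate 3, Atp6v1a was called lower (-0.18 with adjusted p = 0.0287) and Atp6v1f higher (0.25 with adjusted p = 0.0128).

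The accessory subunit Atp6ap1, which helps V0 assemble in the endoplasmic reticulum, had 221, 219, 219, 223 and 218 FPKM in LPS+Baf A1, against 171, 171 and 164 FPKM in LPS. The groups did not overlap, and the log2 change was 0.38 (standard error 0.036, adjusted p = 6.04e-09 by limma). Atp6ap2, also known as the prorenin receptor, was not called (0.075, adjusted p = 0.23 by limma), and was called higher without LPS replicate 3 (0.13 with adjusted p = 0.034). The RAVE genes divided. Dmxl2 had 4.31, 4.08, 3.89, 4.09 and 3.93 FPKM in LPS+Baf A1, against 9.81, 9.95 and 5.55 FPKM in LPS. Replicate 3 of LPS lay closest to the treated libraries, and the log2 change was -0.86 (standard error 0.12, adjusted p = 3.57e-06 by limma). Dmxl1 had 4.86, 4.21, 4.82, 4.49 and 4.51 FPKM in LPS+Baf A1, against 8.84, 8.32 and 5.12 FPKM in LPS, with the same LPS library closest and a log2 change of -0.57 (standard error 0.1, adjusted p = 6.86e-05 by limma). Without that library the changes were -1.11 with adjusted p = 3.45e-09 for Dmxl2 and -0.78 with adjusted p = 7.69e-09 for Dmxl1. Wdr7 rose to 6.91 ± 0.374 FPKM in LPS+Baf A1, against 5.56 ± 0.853 FPKM in LPS (0.28, adjusted p = 0.00332 by limma), and Rogdi was not called (0.14).

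Among the ion carriers the largest fall of the set was that of Slc9a9, which exchanges protons of recycling and late endosomes for sodium or potassium. It had 3.62, 3.54, 3.97, 3.29 and 3.33 FPKM in LPS+Baf A1, against 8.18, 8.46 and 6.88 FPKM in LPS. The treated libraries lay in a narrow band well under the LPS libraries, and the log2 change was -0.96 (standard error 0.15, adjusted p = 1.53e-05 by limma). The related cation channels Tpcn1 and Tpcn2, which release sodium or calcium from endosomes and lysosomes, went opposite ways. Tpcn1 averaged 7.77 ± 0.3 FPKM in LPS+Baf A1 and 6.00 ± 0.822 FPKM in LPS (0.33, adjusted p = 0.000777 by limma), and Tpcn2 12.3 ± 0.753 FPKM in LPS+Baf A1 and 16.98 ± 2.34 FPKM in LPS (-0.43, adjusted p = 6.95e-05 by limma). The difference between them was not tested as such. Ostm1, the partner that the chloride-proton exchanger Clcn7 needs for stability, rose to 17.5 ± 0.783 FPKM in LPS+Baf A1, against 14.6 ± 0.657 FPKM in LPS (0.25, adjusted p = 0.000847 by limma). Clcn7 itself did not pass the threshold (0.16, adjusted p = 0.0551 by limma) although its groups did not overlap, and it was called higher without LPS replicate 2 (0.19 with adjusted p = 0.0446). Mcoln1 (-0.13) and the potassium and proton channel gene Tmem175 (0.036) were not called.

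**Figure D2:**
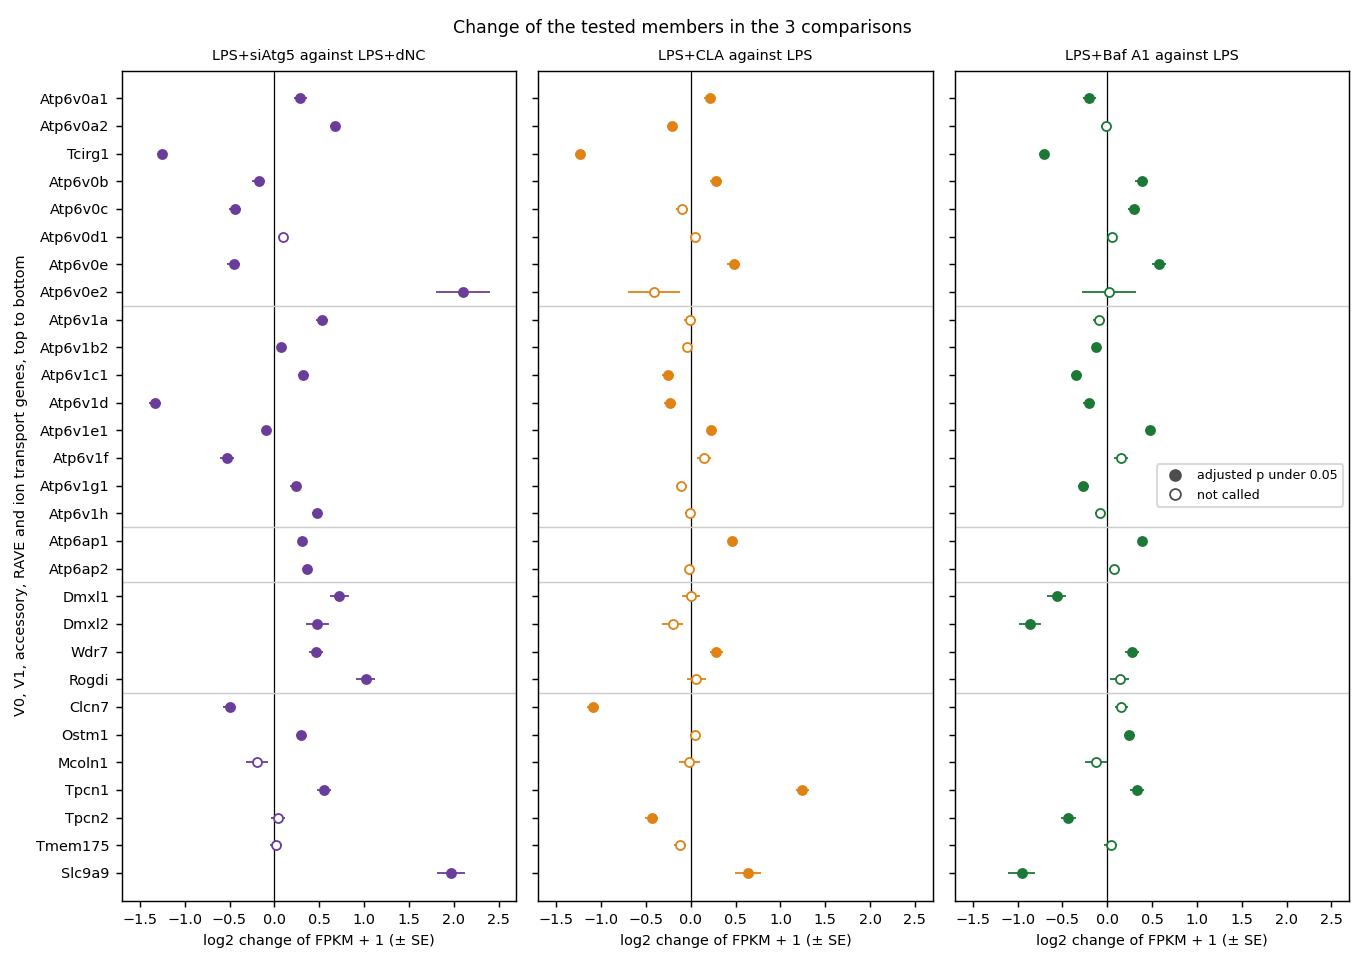
Log2 change of FPKM + 1 with its SE for the 29 tested genes in the comparisons of LPS+siAtg5 with LPS+dNC, LPS+CLA with LPS, and LPS+Baf A1 with LPS, grouped from V0 at the top to ion transport at the bottom, with filled points at a limma adjusted p under 0.05. Tcirg1 lies left of 0 in each panel at -1.25, -1.24 and -0.70, and Slc9a9 right of 0 at 1.97 and 0.64 in the first and second panels and left of 0 at -0.96 in the last.

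Summed over genes, the V0 sector reached 1437 to 1493 FPKM in LPS+Baf A1, against 1201 to 1428 FPKM in LPS, and the V1 sector 814 to 835 FPKM in LPS+Baf A1, against 789.8 to 851 FPKM in LPS. The V0 sums did not overlap and the V1 sums did, and Atp6v0c alone carried 585, 625 and 698 FPKM of the V0 sums in LPS. The 2 accessory genes summed to 297 to 307 FPKM in LPS+Baf A1, against 243 to 248 FPKM in LPS. Markers of other cells were counted too, beside 57.8% of all genes called, 32.7% higher and 25.1% lower. Of fibroblast, mural and endothelial markers 4 of 7 tested (57.1%) were higher, with sums of 17.1 to 22.5 FPKM in LPS+Baf A1 and 11.2 to 16.1 FPKM in LPS. Of neuron markers 3 of 6 tested (50.0%) were lower, with sums of 7.08 to 10.3 FPKM in LPS+Baf A1 and 12.4 to 16.1 FPKM in LPS. Of 10 astrocyte markers 3 were higher and 1 lower, with sums of 17.6 to 20.7 FPKM in LPS+Baf A1 and 8.50 to 13.7 FPKM in LPS, of which Gja1, a gap junction gene, carried 11.2 ± 0.533 FPKM in LPS+Baf A1 and 3.37 ± 0.282 FPKM in LPS, while Gfap averaged 0.9 ± 0.181 FPKM in LPS+Baf A1 and 2.05 ± 0.759 FPKM in LPS. The border macrophage and monocyte markers did not move as a list: Pf4, which carried most of their sum, was higher at 209 ± 25.2 FPKM in LPS+Baf A1, against 97.7 ± 7.96 FPKM in LPS, and Mrc1 was lower at 5.10 ± 0.203 FPKM in LPS+Baf A1, against 12.4 ± 3.21 FPKM in LPS. The microglia sum was 3332 to 3477 FPKM in LPS+Baf A1, against 3495 to 3765 FPKM in LPS, with 4 of 10 markers higher and 5 lower. Their part in the changes above was not tested.

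**Figure D3:**
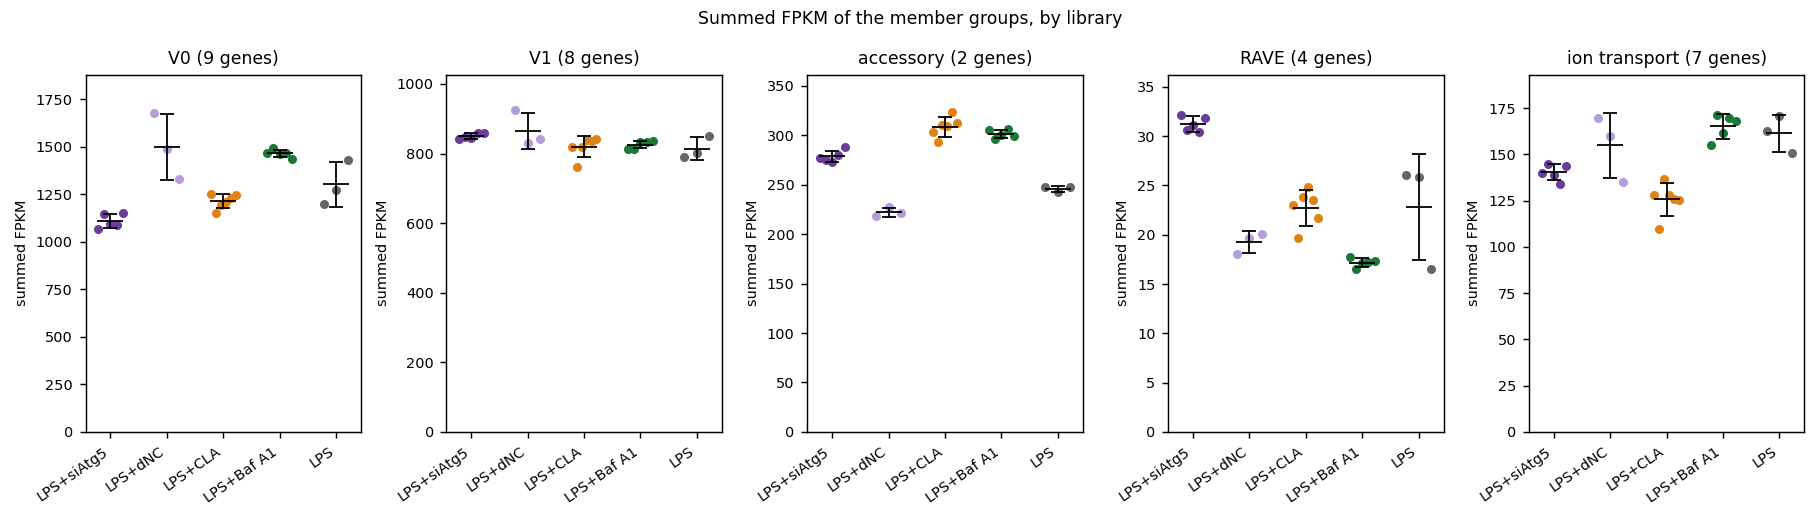
Summed FPKM of the 5 gene groups by library, with the mean and SD, on linear axes that start at 0. The V0 sum was 1437 to 1493 FPKM in LPS+Baf A1 and 1201 to 1428 FPKM in LPS, and RAVE genes summed to 30.4 to 32.2 FPKM in LPS+siAtg5 and to 18.01 to 20.1 FPKM in LPS+dNC.

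Cells with knockdown of Atg5, whose product autophagosomes require, were set against LPS+dNC. Of the 29 genes, 17 were higher and 8 lower in LPS+siAtg5 (86.2%), against 81.2% of all genes, 59.6% higher and 21.6% lower, so most of the transcriptome was called. The libraries of the groups did not overlap for 24 of 29 genes (82.8%), against 77.0% of all genes, and the median log2 change was 0.29 for the set and 0.34 for all genes. With median-of-ratios scaling that all-gene median was 0.08, and with quantile normalization it was -0.01, and the set then held 9 higher and 13 lower, or 13 higher and 8 lower, genes. Under median-of-ratios scaling Atp6v0a1, Atp6v1c1, Atp6v1g1, Atp6ap1, Atp6ap2, Dmxl2 and Ostm1 lost their calls, and under quantile normalization Atp6v0a1, Atp6v0b, Atp6v0c, Atp6v1e1, Dmxl2, Wdr7 and Ostm1 did. By role, 3 V0 genes rose and 4 fell of 8, 5 V1 genes rose and 3 fell of 8, both accessory genes and all 4 RAVE genes rose, and 3 ion transport genes rose and 1 fell of 7.

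The largest rise was that of Atp6v0e2. It had 14.6, 15.0, 12.3, 15.5 and 13.2 FPKM in LPS+siAtg5, against 0.43, 4.87 and 4.17 FPKM in LPS+dNC. All knockdown libraries were far above the LPS+dNC libraries, of which replicate 1 was by far the lowest, and the log2 change was 2.10 (standard error 0.3, adjusted p = 1.43e-06 by limma), or 1.45 with adjusted p = 6.94e-08 without that replicate. Rogdi, the smallest RAVE gene in level, had 3.95, 2.83, 3.65, 3.60 and 3.69 FPKM in LPS+siAtg5, against 1.03, 1.26 and 1.44 FPKM in LPS+dNC. The groups did not overlap, and the log2 change was 1.02 (standard error 0.11, adjusted p = 9.03e-09 by limma), or 0.40 with adjusted p = 0.00117 under quantile normalization. Beside these changes the summed neuron markers were at 53.8 to 67.3 FPKM in LPS+siAtg5 and 1.86 to 12.2 FPKM in LPS+dNC. Of neuron markers 6 of 6 tested were higher and of astrocyte markers 10 of 10, beside 59.6% of all genes. Of fibroblast, mural and endothelial markers 6 of 7 tested were higher, with sums of 91.8 to 122 FPKM in LPS+siAtg5 and 5.86 to 15.1 FPKM in LPS+dNC. The microglia sums were 3218 to 3427 FPKM in LPS+siAtg5 and 2388 to 2628 FPKM in LPS+dNC, and the oligodendrocyte lineage sums 102 to 107 FPKM in LPS+siAtg5 and 79.1 to 92.8 FPKM in LPS+dNC, also without overlap. In LPS+dNC replicate 1 and LPS+CLA replicate 2 the neuron markers summed to 1.86 and 0.86 FPKM, and Atp6v0e2 was lowest in the same libraries at 0.43 and 0.32 FPKM. Elsewhere their order differed. LPS+dNC replicates 2 and 3 had neuron sums of 11.1 and 12.2 FPKM with Atp6v0e2 at 4.87 and 4.17 FPKM. The LPS libraries had neuron sums of 12.4 to 16.1 FPKM with Atp6v0e2 at 1.66 to 1.74 FPKM. The part of these other cells in the changes was not tested.

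**Figure D4:**
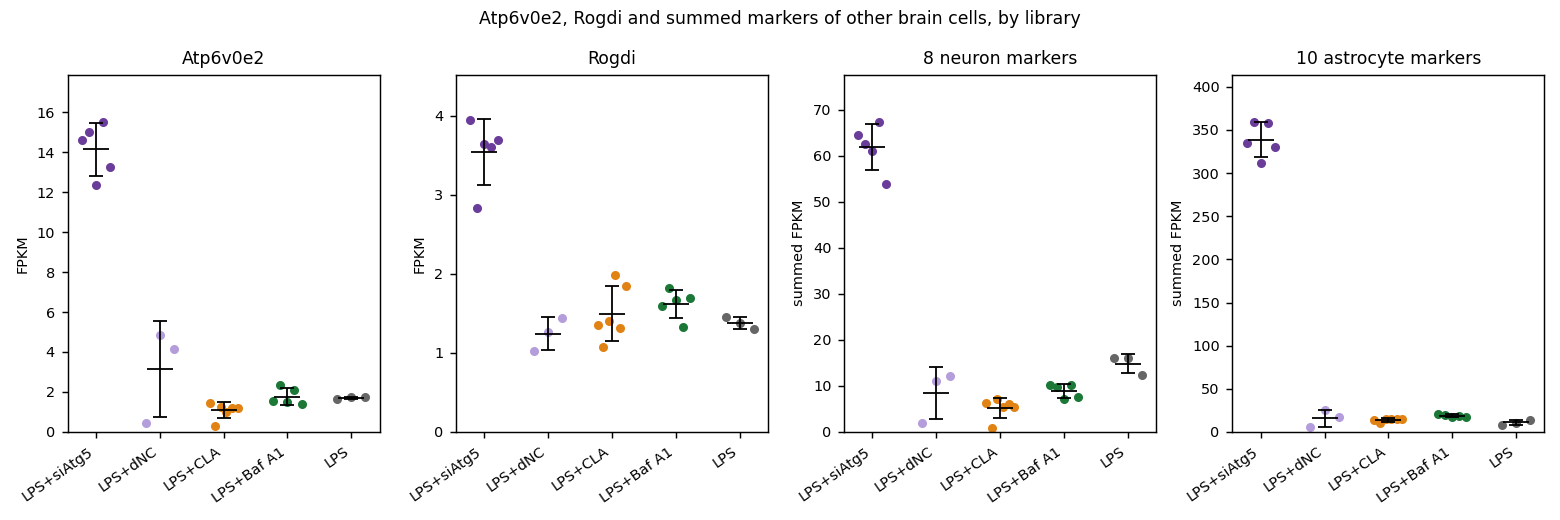
FPKM of Atp6v0e2 and Rogdi and summed FPKM of 8 neuron and 10 astrocyte markers, by library, with the mean and SD, on linear axes that start at 0. All 4 quantities are highest in the 5 LPS+siAtg5 libraries, with Atp6v0e2 at 12.3 to 15.5 FPKM, and no other library reaches them.

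Slc9a9 had 6.27, 6.53, 6.22, 6.57 and 8.19 FPKM in LPS+siAtg5, against 0.67, 1.14 and 1.15 FPKM in LPS+dNC. The LPS+dNC libraries were the lowest of all for this gene, and the log2 change was 1.97 (standard error 0.15, adjusted p = 7.47e-11 by limma). Against LPS, whose libraries held 8.18, 8.46 and 6.88 FPKM, the knockdown value was not called (-0.19, adjusted p = 0.266 by limma). Dmxl1 had 9.18, 8.85, 9.29, 8.66 and 8.10 FPKM in LPS+siAtg5, against 5.06, 4.81 and 4.95 FPKM in LPS+dNC, with no overlap and a log2 change of 0.72 (standard error 0.1, adjusted p = 1.2e-06 by limma), or 0.36 with adjusted p = 0.000823 under quantile normalization. Dmxl2 (0.48) and Wdr7 (0.47) rose as well, so all 4 RAVE genes were called higher, beside 59.6% of all genes. Dmxl2 was not called under either other scaling and Wdr7 not under quantile normalization (0.10 with adjusted p = 0.158). Against LPS all 4 were called higher too, beside 61.2% of all genes, and the libraries did not overlap for 2 of them. Those of Dmxl1 (8.10 to 9.29 FPKM in LPS+siAtg5, 5.12 to 8.84 FPKM in LPS) and Dmxl2 (9.76 to 11.3 FPKM in LPS+siAtg5, 5.55 to 9.95 FPKM in LPS) did overlap.

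Of the falls, Atp6v1d, the D subunit of the rotor, had 32.0, 31.8, 32.8, 33.2 and 32.5 FPKM in LPS+siAtg5, against 90.3, 76.4 and 84.0 FPKM in LPS+dNC. The LPS+dNC libraries lay above those of every other group, and the log2 change was -1.33 (standard error 0.067, adjusted p = 3.21e-14 by limma). Set against LPS at 35.8, 34.1 and 39.9 FPKM, the knockdown libraries differed by -0.17, adjusted p = 0.0298 by limma, a call that was lost without LPS replicate 3 or LPS+siAtg5 replicate 2, the adjusted p reaching 0.2 over the alternatives. Tcirg1 had 115, 115, 112, 106 and 107 FPKM in LPS+siAtg5, against 293, 268 and 239.9 FPKM in LPS+dNC. Every knockdown library was under every LPS+dNC library, and the log2 change was -1.25 (standard error 0.056, adjusted p = 3.79e-15 by limma), with -1.04, adjusted p = 1.84e-13 against LPS. Atp6v1f, a small rotor subunit, had 90.8, 103, 88.9, 99.6 and 99.3 FPKM in LPS+siAtg5, against 166, 130.2 and 124 FPKM in LPS+dNC. The groups did not overlap, with a log2 change of -0.53 (standard error 0.079, adjusted p = 2.42e-06 by limma), whereas against LPS the libraries overlapped and the change was 0.18, adjusted p = 0.0433, a call lost under 10 alternatives, both other scalings among them, with adjusted p up to 0.253 and a lowest value of -0.15. Clcn7 had 57.4, 62.0, 57.7, 55.5 and 59.0 FPKM in LPS+siAtg5, against 96.3, 85.0 and 69.3 FPKM in LPS+dNC. No library of the groups overlapped, the log2 change was -0.50 (standard error 0.069, adjusted p = 7.09e-07 by limma), and against LPS it was -0.53, adjusted p = 3.82e-07.

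The other V0 and V1 genes moved less. Atp6v0c (-0.44), Atp6v0e (-0.46) and Atp6v0b (-0.17) fell, and Atp6v0a2 (0.67), Atp6v1a (0.53), Atp6v1h (0.48), Atp6v1c1 (0.32), Atp6v0a1 (0.29) and Atp6v1g1 (0.24) rose. Under quantile normalization Atp6v0c was -0.019 with adjusted p = 0.759, and under median-of-ratios scaling -0.75 with adjusted p = 7.01e-09. Under median-of-ratios scaling Atp6v0a2 was 0.38, Atp6v1a 0.23, Atp6v1h 0.17, Atp6v1c1 0.019, Atp6v0e -0.76 and Atp6v0b -0.48. There Atp6v0a1 (-0.0087) and Atp6v1g1 (-0.068) turned below 0. Atp6v1b2 (0.077, adjusted p = 0.0499 by limma) and Atp6v1e1 (-0.094, adjusted p = 0.0486 by limma) passed the threshold only narrowly. Atp6v1b2 lost its call without LPS+dNC replicate 2 or 3 and without each of the 5 knockdown libraries in turn, its adjusted p then reaching up to 0.194. Atp6v1e1 lost its call without any 1 LPS+dNC library and without LPS+siAtg5 replicate 1, 3, 4 or 5 (adjusted p up to 0.102), and Atp6v0b without LPS+dNC replicate 1 or 2 or LPS+siAtg5 replicate 1 or 3 (up to 0.508). Atp6v0d1 (0.091, adjusted p = 0.0945 by limma) was called higher without LPS+dNC replicate 2 (0.13 with adjusted p = 0.0444). Atp6ap1 (0.31), Atp6ap2 (0.37), Tpcn1 (0.55) and Ostm1 (0.30) rose, and Mcoln1 (-0.19), Tpcn2 (0.042) and Tmem175 (0.019) were not called. Under median-of-ratios scaling Atp6ap1 was 0.0017, Atp6ap2 0.065, Ostm1 0.0025 and Tpcn1 0.28, the last at 0.20 under quantile normalization. Set against LPS as deposited, Atp6v1a (0.055, adjusted p = 0.473 by limma), Atp6v1c1 (-0.028), Atp6v0a1 (-0.036) and Atp6v0b (0.019) were not called in LPS+siAtg5. Atp6v1h averaged 60.4 ± 1.27 FPKM in LPS+siAtg5, 43.2 ± 2.98 FPKM in LPS+dNC and 58.7 ± 3.90 FPKM in LPS. Atp6v0a2 (0.51) and Atp6v1g1 (0.29) were higher and Atp6v0c (-0.31) lower against LPS too. There Atp6v1g1 lost its call under median-of-ratios scaling and Atp6v0c under quantile normalization.

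The comparators themselves differed. In LPS+dNC against LPS, 8 genes of the set were higher and 10 lower, which is 62.1% against 57.2% of all genes, 29.0% higher and 28.1% lower. The libraries did not overlap for 15 of 29 genes (51.7%), against 53.6% of all genes. Atp6v1d was at 90.3, 76.4 and 84.0 FPKM in LPS+dNC and 35.8, 34.1 and 39.9 FPKM in LPS, a log2 change of 1.17 (standard error 0.075, adjusted p = 9.6e-12 by limma). Atp6v0e (0.78, adjusted p = 6.3e-08 by limma) and Atp6v1f (0.71, adjusted p = 4.46e-07 by limma) were higher in LPS+dNC too. Slc9a9 was lower (-2.16, adjusted p = 3.82e-10 by limma), as were Atp6v1a (-0.48, adjusted p = 1.38e-05 by limma) and Dmxl1 (-0.47, adjusted p = 0.00132 by limma), the last not called when only these groups were fitted (adjusted p = 0.0615). The neutrophil and lymphocyte markers that the table held, 2 genes, summed to 129 to 633 FPKM in LPS+dNC and 5.68 to 12.5 FPKM in LPS. Almost all of these sums was S100a8, at 357 ± 255 FPKM in LPS+dNC and 8.56 ± 3.46 FPKM in LPS. The lymphocyte marker Ms4a1 was at 0.173 ± 0.085 FPKM in LPS+dNC and 0.0667 ± 0.0252 FPKM in LPS. The microglia markers summed to 2388 to 2628 FPKM in LPS+dNC and 3495 to 3765 FPKM in LPS. The part of these markers in the differences was not tested. In LPS+siAtg5 against LPS, 14 of 29 genes were higher and 6 lower (69.0%, against 76.8% of all genes, 61.2% higher and 15.6% lower, with no overlap in 62.1% and 70.7%). Under median-of-ratios scaling 6 were higher and 17 lower, and under quantile normalization 9 higher and 8 lower. As deposited, Atp6v0e2 (2.48), Rogdi (0.93) and Tpcn1 (0.63) had the largest rises and Tcirg1, Clcn7 and Tpcn2 (-0.35) the largest falls. Over the alternatives Rogdi was as low as 0.27 and Tpcn1 as low as 0.26. Atp6v0e, lower against LPS+dNC, was higher against LPS (0.32, adjusted p = 0.000639 by limma), and under median-of-ratios scaling this last value was -0.0094 with adjusted p = 0.93.

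With CLA, Tcirg1 and Clcn7 had the largest falls of the set and Tpcn1 and Slc9a9 the largest rises, while the called changes of V1 genes lay between -0.25 and 0.22 on the log2 scale. Of the 29 genes, 8 were higher and 6 lower in LPS+CLA than in LPS (48.3%), against 63.1% of all genes, 40.4% higher and 22.6% lower. The groups did not overlap for 11 of 29 genes (37.9%), against 51.6% of all genes, and the median log2 change was -0.01 for the set and 0.09 for all genes. Under median-of-ratios scaling 4 genes were higher and 14 lower, and under quantile normalization 6 were higher and 11 lower. By role, 3 V0 genes rose and 2 fell of 8, 1 V1 gene rose and 2 fell of 8, 1 accessory gene rose of 2, 1 RAVE gene rose of 4, and 2 ion transport genes rose and 2 fell of 7. This comparison and that of bafilomycin A1 share the 3 LPS libraries, so their values are set side by side here and not counted as independent.

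Tcirg1 ranged over 91.6 to 97.9 FPKM with a median of 97.6 in LPS+CLA, against 213, 227 and 251 FPKM in LPS. All 6 treated libraries lay far below the LPS libraries, and the log2 change was -1.24 (standard error 0.054, adjusted p = 8.8e-15 by limma), beside -0.70 with bafilomycin A1. Clcn7 ranged over 36.6 to 40.6 FPKM with a median of 39.5 in LPS+CLA, against 86.4, 88.9 and 78.6 FPKM in LPS. The groups were wide apart, with a log2 change of -1.09 (standard error 0.067, adjusted p = 2.94e-12 by limma). Ostm1, its partner, was not called (0.042, adjusted p = 0.531 by limma), at 15.1 ± 1.11 FPKM in LPS+CLA and 14.6 ± 0.657 FPKM in LPS. Tpcn2 ranged over 10.6 to 13.2 FPKM with a median of 12.4 in LPS+CLA, against 17.4, 19.1 and 14.5 FPKM in LPS, with no overlap and a log2 change of -0.44 (standard error 0.077, adjusted p = 3.29e-05 by limma). Atp6v1c1 ranged over 47.8 to 57.8 FPKM with a median of 55.9 in LPS+CLA, against 63.3, 62.5 and 70.7 FPKM in LPS, again without overlap and with a log2 change of -0.25 (standard error 0.061, adjusted p = 0.00102 by limma).

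The largest rise with CLA was that of Tpcn1, which ranged over 13.4 to 16.3 FPKM with a median of 15.8 in LPS+CLA, against 6.06, 6.79 and 5.15 FPKM in LPS. All 6 treated libraries were far above the 3 LPS libraries, and the log2 change was 1.24 (standard error 0.074, adjusted p = 1.73e-12 by limma). Slc9a9 ranged over 7.23 to 15.5 FPKM with a median of 13.8 in LPS+CLA, against 8.18, 8.46 and 6.88 FPKM in LPS. The groups overlapped through LPS+CLA replicate 2 at 7.23 FPKM, and the log2 change was 0.64 (standard error 0.15, adjusted p = 0.000773 by limma), or 0.78 with adjusted p = 1.21e-07 without that library. Atp6v0e ranged over 153 to 183 FPKM with a median of 172 in LPS+CLA, against 109, 113 and 141 FPKM in LPS, all treated libraries being higher, with a log2 change of 0.48 (standard error 0.074, adjusted p = 6.93e-06 by limma). Atp6ap1 ranged over 224 to 244 FPKM with a median of 231 in LPS+CLA, against 171, 171 and 164 FPKM in LPS, with no overlap and a log2 change of 0.46 (standard error 0.035, adjusted p = 1.03e-10 by limma).

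Smaller rises were those of Wdr7 (0.28), Atp6v0b (0.28), Atp6v1e1 (0.22) and Atp6v0a1 (0.21), none of which was called under median-of-ratios scaling, nor Wdr7 and Atp6v0a1 under quantile normalization. Smaller falls were those of Atp6v1d (-0.23) and Atp6v0a2 (-0.21). The 15 others, among them Atp6v0c (-0.097), Dmxl2 (-0.20), Dmxl1 (0.0016) and Mcoln1 (-0.015), did not pass the threshold. Atp6v0c was called lower under median-of-ratios scaling (-0.25 with adjusted p = 0.00579) and under quantile normalization (-0.16 with adjusted p = 0.0105). Without LPS replicate 3, Dmxl1 (-0.21 with adjusted p = 0.0109) and Dmxl2 (-0.45 with adjusted p = 0.000266) were called lower, and Atp6v0d1 (0.11 with adjusted p = 0.0432) and Atp6v1f (0.24 with adjusted p = 0.0117) higher. Without LPS replicate 1, Atp6v1g1 (-0.18 with adjusted p = 0.0154) and Tmem175 (-0.22 with adjusted p = 0.00511) were called lower. The markers were counted beside 40.4% of all genes called higher and 22.6% called lower. Of neuron markers 6 of 6 tested were lower in LPS+CLA, with sums of 0.86 to 7.13 FPKM in LPS+CLA and 12.4 to 16.1 FPKM in LPS. The microglia markers summed to 4045 to 4138 FPKM in LPS+CLA and 3495 to 3765 FPKM in LPS, with 3 of 10 higher and 3 lower. Of oligodendrocyte lineage markers 2 of 7 tested were higher and 3 lower, with sums of 61.8 to 71.2 FPKM in LPS+CLA and 72.5 to 84.7 FPKM in LPS. Of fibroblast, mural and endothelial markers 4 of 7 were higher, with overlapping sums of 14.8 to 28.3 FPKM in LPS+CLA and 11.2 to 16.1 FPKM in LPS. Pf4 was higher at 244 ± 44.6 FPKM in LPS+CLA, against 97.7 ± 7.96 FPKM in LPS, while Mrc1 (4.86 ± 1.37 FPKM in LPS+CLA, 12.4 ± 3.21 FPKM in LPS) and Ly6c2 (0.0917 ± 0.115 FPKM in LPS+CLA, 1.21 ± 0.354 FPKM in LPS), of the same macrophage and monocyte list, were lower. Their part was not tested.

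Set against each other, LPS+CLA and LPS+Baf A1 differed in 15 of 29 genes, 8 higher and 7 lower with CLA (51.7%), against 54.3% of all genes, 35.4% higher and 19.0% lower. The libraries did not overlap for 13 of 29 genes (44.8%), against 39.5% of all genes. Under median-of-ratios scaling 5 genes were higher and 10 lower, and under quantile normalization 6 higher and 8 lower. Slc9a9 was higher with CLA (1.59, standard error 0.13, adjusted p = 6.74e-10 by limma), as were Tpcn1 (0.91, adjusted p = 5.95e-11) and Dmxl2 (0.66, adjusted p = 1.23e-05). Clcn7 was lower with CLA, at 39.3 ± 1.42 FPKM in LPS+CLA and 94.4 ± 2.80 FPKM in LPS+Baf A1 (-1.24, adjusted p = 6.4e-14 by limma). Tcirg1 (-0.54, adjusted p = 1.91e-09 by limma) and Atp6v0c (-0.39, adjusted p = 2.39e-06 by limma) were lower with CLA as well. The doses of the agents differed, at 50 nM for CLA and 10 nM for bafilomycin A1.

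The change with bafilomycin A1 was also tested against the change with Atg5 knockdown, with no library common to both changes. The changes differed for 22 of 29 genes, 8 more positive with bafilomycin A1 and 14 more negative (75.9%), against 72.7% of all genes, 20.4% more positive and 52.3% more negative. The difference, bafilomycin A1 minus knockdown, was largest and positive for Atp6v1d (1.13, standard error 0.095, adjusted p = 5.65e-10 by limma), Atp6v0e (1.03, adjusted p = 2.03e-08) and Atp6v0c (0.73, adjusted p = 3.23e-07), although under quantile normalization that of Atp6v0c was 0.27 with adjusted p = 0.00375. It was largest and negative for Slc9a9 (-2.92, adjusted p = 8.6e-11 by limma), Atp6v0e2 (-2.08, adjusted p = 0.000159 by limma) and Dmxl2 (-1.34, adjusted p = 5.58e-07 by limma). For Atp6v1d and Slc9a9 the LPS+dNC libraries lay outside the range of every other group, as given above. Those of Atp6v0e, at 239, 189 and 195 FPKM, also lay above every other group. Against LPS, Atp6v0e was higher with knockdown (0.32) as well as with bafilomycin A1 (0.57). Under median-of-ratios scaling 12 genes were more positive and 12 more negative.

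Because the a subunit takes 1 place in each pump, the share of its 3 expressed genes was followed. Tcirg1 made up 65.3% ± 0.69 of the summed a-subunit FPKM in LPS+siAtg5 and 86.2% ± 1.17 in LPS+dNC, 64.2% ± 2.06 in LPS+CLA, 75.1% ± 0.696 in LPS+Baf A1 and 81.7% ± 1.91 in LPS (mean and SD, in percentage points). In every library Tcirg1 was the largest part. Atp6v0a1 made up 24.8% ± 2.27 in LPS+CLA and 14.8% ± 0.445 in LPS+Baf A1, against 11.4% ± 0.891 in LPS. A share depends on the levels of all 3 genes. Atp6v0a1 itself averaged 37.4 ± 3.98 FPKM in LPS+CLA, 27.7 ± 1.08 FPKM in LPS+Baf A1 and 32.0 ± 1.32 FPKM in LPS. With bafilomycin A1 its level was thus lower while its share was higher. Tcirg1 averaged 141 ± 4.50 FPKM in LPS+Baf A1 and 230 ± 19.2 FPKM in LPS. The share of Atp6v0a2, a subunit known from endosomes and the Golgi, was 16.3% ± 0.461 in LPS+siAtg5, against 5.52% ± 0.411 in LPS+dNC, with 8.35% of its 50-base stretches also found in other genes. Among e subunits, Atp6v0e2 made up 8.59% ± 0.737 in LPS+siAtg5 and 1.60% ± 1.24 in LPS+dNC, and Atp6v0d2 stayed under 1% of the d subunits in all 22 libraries. The shares are a description of transcript levels, with no test.

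**Figure D5:**
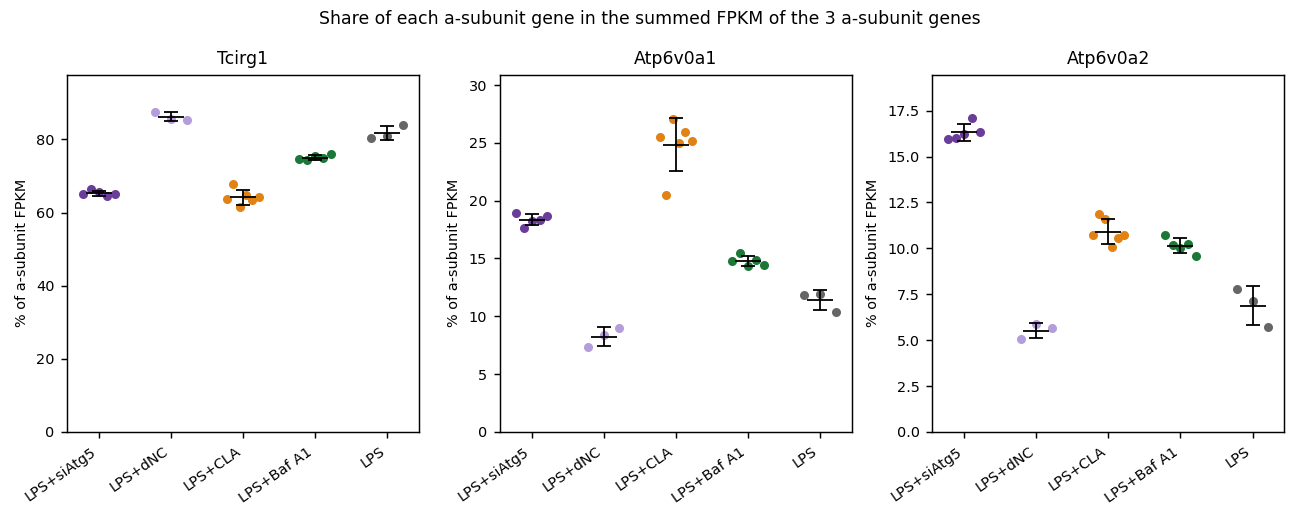
Share of each a-subunit gene in the summed FPKM of the 3 genes, in percent, by library, with the mean and SD, on linear axes that start at 0. Tcirg1 is at 61.4 to 67.7% in LPS+CLA, 74.3 to 76.0% in LPS+Baf A1 and 80.3 to 83.9% in LPS.

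Over the 3 comparisons of the design, 11 of the 29 genes were called in each (37.9%), against 36.8% of all genes tested, and 3, Atp6v0d1, Mcoln1 and Tmem175, in none (10.3%), against 4.66% of all genes. Those called in each include Tcirg1 and Atp6v1d, lower throughout, and Atp6ap1, Tpcn1 and Wdr7, higher throughout, although with knockdown Atp6ap1 and Wdr7 each lost the call under another scaling, as did Wdr7 with CLA. Atp6v1d lost its call with bafilomycin A1 without LPS replicate 3. Its change with knockdown was -1.33 against LPS+dNC and -0.17 against LPS. The comparisons with bafilomycin A1 and CLA share their LPS libraries, and 34.3% of the 50-base stretches of Tmem175 occur in its neighbour Dgkq, so its level is uncertain.

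Other genes of the pathway were counted from lists. Of the V-ATPase assembly factors and TLDc proteins, 3 of 7 tested were higher and 1 lower in LPS+Baf A1 against LPS, 4 higher and 1 lower in LPS+siAtg5 against LPS+dNC, and 3 higher and 1 lower in LPS+CLA against LPS. Of all genes 57.8%, 81.2% and 63.1% were called in these comparisons, in the same order. The gene that was lower was Ncoa7 in each comparison (-0.65 with bafilomycin A1, -0.71 with knockdown, -0.79 with CLA), a TLDc protein that binds the pump. Tmem9, a lysosomal membrane protein, was higher in each (0.35, 1.31 and 0.61 in the same order), its call with bafilomycin A1 being lost without LPS replicate 1 (adjusted p = 0.123). The assembly factor Tmem199 rose with bafilomycin A1 (0.34), its partner Ccdc115 with CLA (0.73) and Tbc1d24 with knockdown (0.61), the last not under quantile normalization (0.0074 with adjusted p = 0.938). Of the 6 other subunit isoforms, 1 was tested: Atp6v1g2 was lower in LPS+siAtg5 (-0.48, adjusted p = 0.00702 by limma) and in LPS+CLA (-0.39, adjusted p = 0.0284 by limma). It averaged 1.75 ± 0.357 FPKM in LPS+siAtg5, 2.84 ± 0.504 FPKM in LPS+dNC and 1.71 ± 0.0709 FPKM in LPS. Against LPS the knockdown value was not called (0.010). With CLA the call was lost without any 1 LPS library or without LPS+CLA replicate 2 or 6, the adjusted p reaching 0.0811.

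Of 13 listed further carriers of endosomes and lysosomes, 10 were tested. With bafilomycin A1 4 were higher and 4 lower, with knockdown 7 higher and 2 lower, and with CLA 3 higher and 4 lower, beside 57.8%, 81.2% and 63.1% of all genes called in either direction. The chloride-proton exchanger Clcn3 rose by 0.37, 0.81 and 0.79 with bafilomycin A1, knockdown and CLA, beside Clcn7 at 0.16, -0.50 and -1.09. Cln3, a lysosomal membrane protein mutated in Batten disease, was lower in each (-0.65, -0.79 and -0.62). Mcoln2, a channel related to Mcoln1, fell with knockdown (-0.94), and the ATP-gated channel P2rx4 fell with CLA (-0.68). The arginine sensor Slc38a9 was lower with bafilomycin A1 (-0.38, adjusted p = 0.0194 by limma), with overlapping libraries and a call lost without LPS replicate 1 or 2 or LPS+Baf A1 replicate 5, the adjusted p reaching 0.096.

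The Ragulator, Rag and TFE list, the proteins that dock mTORC1 on the lysosome and the transcription factors they hold back, had all 16 genes tested. With bafilomycin A1 4 were higher and 5 lower, with knockdown 6 higher and 5 lower, and with CLA 6 higher and 6 lower, so that 9, 11 and 12 of 16 were called beside 57.8%, 81.2% and 63.1% of all genes. Fnip2 (-1.73 with bafilomycin A1 and -1.54 with CLA) and Fnip1 (-1.40 and -1.22), the folliculin partners, had the largest falls. Lamtor4 (0.82 and 0.62) and Lamtor2 (0.59 and 0.54), subunits of Ragulator, had the largest rises with both agents. With knockdown Lamtor2 was lower than in LPS+dNC (-0.45). Its knockdown libraries spanned 36.07 to 47.0 FPKM, under the LPS+dNC range of 56.39 to 58.3 FPKM. All of them lay above the libraries of LPS alone, which ranged from 28.35 to 32.05 FPKM. The GTPases Rragd (1.55) and Rragb (0.92) rose with knockdown, Rragb not under quantile normalization (0.13 with adjusted p = 0.169). Tfec was lower with knockdown (-0.60, adjusted p = 0.0247 by limma), and that call was lost without LPS+dNC replicate 2 or 3, the adjusted p reaching 0.349 over the alternatives.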

How the data were processed

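The authors deposited FPKM values per gene for 22 libraries, in a series table and in 22 single-library tables that held the same values. Per the file headers, 19 columns are FPKM, while no unit stands in the headers of the 3 LPS+dNC columns, which were taken as FPKM. Per the submitters' processing notes, CASAVA 1.7, fastp 0.18.0, Bowtie2 2.2.8, HISAT2 and StringTie 1.3.1 were used, with the order, settings, build and gene models not given in the sources used here. FPKM are relative values, so a few abundant genes or other cells can shift the rest, and depth is unknown.

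Libraries were grouped by title. Of 15726 lines, 1 repeated a symbol and its first line was used. Values were taken as log2(FPKM + 1), which understates the change of low genes, and 11070 genes that reached 1 FPKM in 3 or more libraries were tested with limma 3.58.1 in R 4.3.3 (trended, robust empirical Bayes, 5 group means, 17 residual degrees of freedom, Benjamini-Hochberg adjustment over all genes tested, two-sided), after the procedure was tested on simulated data. A gene was called at adjusted p under 0.05. Alternatives were a pseudocount of 0.1, no filter or a filter of 5 FPKM, other scalings, a fit of only the groups compared, a replicate block, LPS in place of LPS+dNC, and leaving out libraries. Genes were named by a rule: per library values for up to 4 called rises and 4 falls per comparison of the design, up to 3 for other contrasts and up to 2 for other lists. The genes of the set and the other lists were chosen with earlier results of these data known. Promoter windows came from RefSeq. Shared 50-base stretches were counted in GENCODE M21 transcripts, not necessarily the annotation the authors used.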

Additional observations from a re-analysis of the deposited data

Results flagged for a closer look

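A library was singled out where its value lay far from those of its group, by the gap to the nearest other library relative to the whole range of the group (Dixon's test at the 95% level). Of 90 groups of values of the 30 genes that held 4 to 10 libraries, 14 gave such a library, and chance gives about 1 in 20. LPS+CLA replicate 2 accounted for 7 of them. LPS+CLA replicate 2 had Atp6v0a1 at 29.6 FPKM against 37.6 to 40.3 FPKM, Atp6v0d2 at 0.17 FPKM against 0.65 to 0.92 FPKM, and Atp6v1b2 at 176 FPKM against 186 to 192 FPKM in the other libraries of the group. The same library had Atp6v1c1 at 47.8 FPKM against 54.1 to 57.8 FPKM, Clcn7 at 36.6 FPKM against 39.2 to 40.6 FPKM, and Tpcn1 at 13.4 FPKM against 15.6 to 16.3 FPKM. The same library had Slc9a9 at 7.23 FPKM against 13.8 to 15.5 FPKM. LPS+Baf A1 replicate 5 had Atp6v0a2 at 18.1 FPKM against 19.1 to 19.4 FPKM and Atp6v1h at 59.7 FPKM against 54.1 to 54.5 FPKM in the other libraries of the group. LPS+CLA replicate 3 had Tcirg1 at 91.6 FPKM against 97.3 to 97.9 FPKM in the other libraries of the group. LPS+siAtg5 replicate 2 had Atp6v1e1 at 193 FPKM against 188 to 189 FPKM in the other libraries of the group. LPS+Baf A1 replicate 3 had Atp6v1g1 at 88.9 FPKM against 80.8 to 83.0 FPKM in the other libraries of the group. LPS+siAtg5 replicate 1 had Tpcn2 at 13.7 FPKM against 12.8 to 12.95 FPKM in the other libraries of the group. LPS+siAtg5 replicate 5 had Slc9a9 at 8.19 FPKM against 6.22 to 6.57 FPKM in the other libraries of the group.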

How the results depend on the processing

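For 111 results of single genes, 1884 values were computed under up to 31 alternative settings. Of these values, 1777 counted as unchanged on their side of the threshold. Changes of sign between values not called under either setting, 42 in number, are among the unchanged. With the sign kept, calls were lost in 47 and gained in 40. In 20 the sign changed while the gene was called under the main setting, the alternative or both. For 66 results every setting run counted as unchanged. The scaling moved the counts of every comparison but that of LPS+Baf A1 with LPS, which stayed at 8 higher and 10 lower under both other scalings. Under median-of-ratios scaling, 9 genes were higher and 13 lower in LPS+siAtg5 against LPS+dNC, 4 higher and 14 lower in LPS+CLA against LPS, 5 higher in LPS+CLA against LPS+Baf A1, and 6 higher and 17 lower in LPS+siAtg5 against LPS. Under quantile normalization, 11 were lower in LPS+CLA against LPS and 9 higher in LPS+siAtg5 against LPS. In LPS+siAtg5 against LPS+dNC, median-of-ratios scaling gave Atp6v0a1 -0.0087, Atp6v0d1 -0.21, Atp6v1b2 -0.23, Atp6v1g1 -0.068, Tpcn2 -0.24 and Tmem175 -0.26, each above 0 as deposited, and quantile normalization gave Atp6v1e1 0.026, Tpcn2 -0.26 and Tmem175 -0.33. With LPS in place of LPS+dNC the sign turned for Atp6v0a1 (-0.036), Atp6v0b (0.019), Atp6v0e (0.32), Atp6v1b2 (-0.14), Atp6v1c1 (-0.028), Atp6v1e1 (0.18), Atp6v1f (0.18), Tpcn2 (-0.35) and Slc9a9 (-0.19). In LPS+CLA against LPS, Dmxl1 was -0.21 without LPS replicate 3, with a range of -0.21 to 0.13 over all libraries left out in turn, and -0.18 with LPS replicate 3, LPS+dNC replicate 1 and LPS+CLA replicate 2 left out together. The cause was not tested.

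Leaving out 1 library at a time gave 8 to 11 genes higher and 9 to 10 lower in LPS+Baf A1 against LPS, 16 to 17 higher and 6 to 8 lower in LPS+siAtg5 against LPS+dNC, and 8 to 10 higher and 6 to 8 lower in LPS+CLA against LPS. A fit with a replicate block gave 8 genes higher and 10 lower for bafilomycin A1, 16 higher and 7 lower for knockdown, and 8 higher and 6 lower for CLA, and changed 2 of 111 results. The replicate numbers did not pair the libraries: the correlation of same-numbered deviations ran from -0.11 to 0.09. DESeq2, listed as an alternative for counts, was not run, since the values are FPKM. Depth is unknown, so the counting error behind differences among the lowest genes, Atp6v0d2, Rogdi and Atp6v0e2, could not be estimated.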
